A study of Mus musculus with 6 samples.

Results

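Regions of the mouse genome that carried a CTCF peak in every library from Cgas knockout (Cgas_KO) cells and in few or none from wild-type (WT) cells are described here. Peaks of the 6 deposited lists on chromosomes 1 to 19 were merged wherever they overlapped by at least 1 bp, and a region was kept when all 3 Cgas_KO lists and at most 1 WT list had a peak in it. This gave 919 regions of 90494 in all, or 1.02%, called Cgas_KO-preferred below. They were chosen by the presence and absence of called peaks, so their presence in Cgas_KO lists, their absence from WT lists and their signal in either genotype are descriptions and were not tested. Set against them are the 1252 regions (1.38%) with the genotypes exchanged, called WT-preferred, and the 4810 regions (5.32%) called in all 6 lists.

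The cells were regulatory T cells of the thymus, 3 libraries from Cgas knockout mice and 3 from WT mice. Age, sex, the way the cells were isolated and whether replicates came from separate animals are not given in the labels, so every p-value below speaks to the spread among these 6 libraries, part of which may be technical. The aim, per the series' design text, was to map where CTCF sits with and without cGAS. The assay was CUT&RUN, which cuts and releases the DNA next to an antibody-bound protein for sequencing. Peak lists hold no expression values, so neither the cell type nor the loss of Cgas could be checked against marker genes.

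CTCF is a zinc-finger protein that recognises a long DNA motif and halts the cohesin ring as it extrudes loops of chromatin. The loops that result bring some enhancers and promoters together and keep others apart. cGAS senses DNA in the cytosol and makes a cyclic dinucleotide that activates STING, and regulatory T cells, which mature in part in the thymus under the factor Foxp3, restrain immune responses. Positions are in mm39, since the sequence names in the lists belong to that build. The gene and promoter tables at hand belong to another build, so regions are named by position, and genes, promoters and sequence at them were not analysed here.

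The lists held 28364, 27044 and 30535 peaks on these chromosomes in Cgas_KO, against 26267, 27775 and 26047 in WT, and the ranges of the genotypes overlapped (p = 0.2 by a two-sided exact permutation test, n = 3 each). Peak height, the authors' maximum signal of a peak, came in whole multiples of 1 step per list, and the median peak was 11 to 14 steps high. The signal of 1 step was 0.117, 0.117 and 0.120 in Cgas_KO replicates 1, 2 and 3. In WT replicates 1, 2 and 3 it was 0.190, 0.212 and 0.195. This scale ran with genotype, so its bearing on the calls cannot be told apart from genotype and was not tested. Depth is unknown since no signal is listed outside peaks, and a missing peak therefore does not show that CTCF was absent. To compare lists, height is given as a percentile within its own list, where 100 is the tallest peak. Where a list had several peaks in a region, the tallest was used.

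Most Cgas_KO-preferred regions were not missing from WT altogether. Of the 919, 306 had no WT peak and 613 had a peak in a single WT list. That list was WT replicate 1 in 202 regions, replicate 2 in 191 and replicate 3 in 220, so no single WT library supplied most of them. Of all 6756 regions called in every Cgas_KO list, the 919 made up 13.6%, while the WT-preferred regions made up 16.1% of the 7788 regions called in every WT list. Both percentages follow from the selection and nothing is read from them.

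Peaks in the Cgas_KO-preferred regions were of middling height in their own lists. Their median height percentile was 52.9, 53.9 and 52.4 in Cgas_KO replicates 1, 2 and 3, or 14, 14 and 11 steps. The mean of these medians was 53.1 ± 0.777 (SD, n = 3). For regions in all 6 lists it was 88.5 ± 0.164 in the same Cgas_KO lists, and for WT-preferred regions it was 70.5 ± 1.69 in the WT lists. The Cgas_KO-preferred regions thus sat near the middle of the Cgas_KO lists, while the WT-preferred regions sat in the upper part of the WT lists. By total signal, the signal summed over a peak, the gap closed, with 57.1 ± 2.10 for Cgas_KO-preferred regions in Cgas_KO lists and 57.7 ± 1.20 for WT-preferred regions in WT lists.

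**Figure D1:**
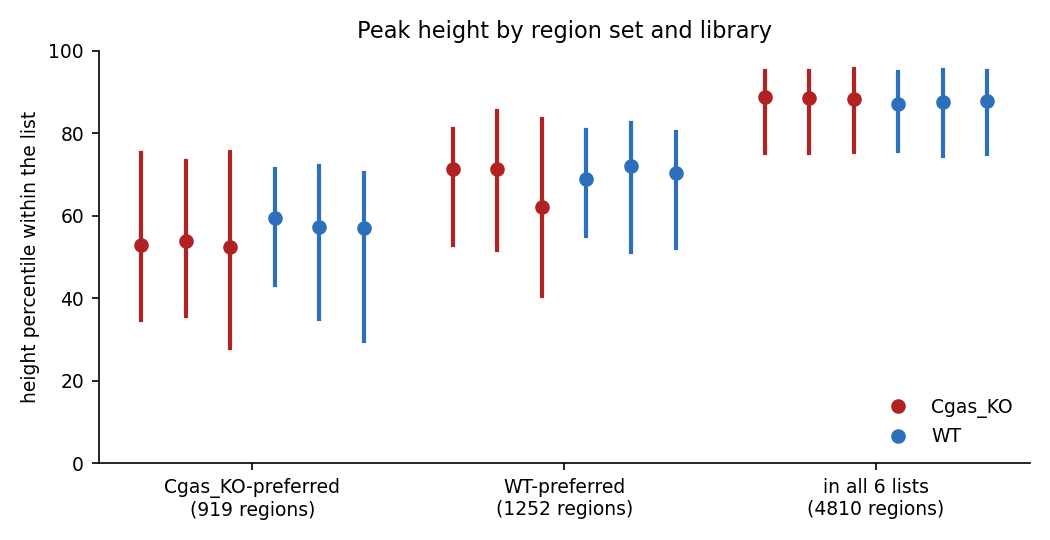
Height percentile of peaks within their own list (y axis), for 3 sets of regions (x axis) and 6 libraries, Cgas_KO in red and WT in blue in the order of replicates 1 to 3; dots are medians over the regions with a peak in that library and bars run from the lower to the upper quartile. Medians of Cgas_KO-preferred regions lie at 52.4 to 53.9 in Cgas_KO libraries, those of regions in all 6 lists at 88.4 to 88.7.

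Few Cgas_KO-preferred regions were tall. The mean percentile over the 3 Cgas_KO lists was above 90 in 12 of the 919 regions (1.31%) and above 75 in 104 (11.3%), while 369 (40.2%) lay below 50. Among WT-preferred regions, 51 of 1252 (4.07%) were above 90 and 430 (34.3%) above 75 over the WT lists. The 3 Cgas_KO lists also differed in how high they ranked the same region, by a median of 35.5 percentile points between the highest and lowest list, against 11.9 points for regions in all 6 lists over the same libraries. The 5 Cgas_KO-preferred regions of lowest mean height stood at percentiles 9.61 to 11.9, with heights of 7 to 11 steps.

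The height of the Cgas_KO peaks was graded with the number of WT lists. In the Cgas_KO lists, the median percentile was 53.1 ± 0.777 in the 306 regions with no WT list and 61.1 ± 0.972 in the 613 regions with 1 WT list, just inside the rule. It was 70.8 ± 0.878 in the 1027 regions with 2 WT lists, just outside it (SD, n = 3 for all). On the Cgas_KO side, regions called in 2 Cgas_KO lists and no WT list numbered 2677 and stood at 37.0 ± 3.15. By total signal, the 306 regions without a WT peak stood at 51.6 ± 4.49 and the 613 with one at 60.3 ± 0.741 in the Cgas_KO lists. Regions with no WT peak were therefore the weaker ones in the Cgas_KO lists as well. In steps the medians were 13.0 ± 1.73 with no WT list and 14.0 ± 1.73 with 1. The WT side was graded too, so this was not particular to Cgas_KO-preferred regions. In the WT lists, WT-preferred regions with 0 and 1 Cgas_KO lists stood at 65.6 ± 0.754 and 71.3 ± 0.860. Regions in all 3 WT and 2 Cgas_KO lists stood at 75.8 ± 0.883 (SD, n = 3 each).

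Where a single WT list had a peak, that peak ranked about as high in its list as the Cgas_KO peaks did in theirs. Over these 613 regions the median percentile was 60.2, 61.0 and 62.1 in Cgas_KO replicates 1, 2 and 3. Over the regions that each WT list held it was 59.4, 57.2 and 57.1 in WT replicates 1, 2 and 3. These medians cover different sets of regions and heights come in whole steps, so nothing is read from their order. Region by region, the median percentile was 57.1 for the WT peak and 56.7 for the mean over the Cgas_KO lists. The WT peak ranked higher in its list than the Cgas_KO mean in 284 of the 613 regions (46.3%). In the WT lists without a peak, the nearest one lay at a median of 13.8 kb in replicate 1, 14.1 kb in replicate 2 and 14.1 kb in replicate 3. It lay within 10 kb in 38.5% to 39.9% of cases and within 1 kb in 4.58% to 4.95%. For WT-preferred regions, the nearest peak in Cgas_KO lists without one lay within 1 kb in 3.31% to 3.72%. Within 10 kb it lay in 38.1% to 38.6%, close to the share for Cgas_KO-preferred regions. The same shares over all regions were not computed. A peak touching the region would have counted as a call, so the rule itself removes the nearest ones.

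The 10 tallest Cgas_KO-preferred regions showed what the strongest cases look like. They were picked by their height in the Cgas_KO lists, so a WT peak of lower rank there is favoured by the choice. The first, on chromosome 2 from 66017611 to 66020138, was 56, 41 and 41 steps high in Cgas_KO replicates 1, 2 and 3, against 57 steps in WT replicate 1 and no peak in the other WT lists. The signal of 1 step was smaller in every Cgas_KO list than in every WT list, so steps are not compared between genotypes. By rank the region's mean percentile was 98.0 ± 0.856 in the Cgas_KO lists (SD, n = 3), against 96.6 in that WT list. The second, on chromosome 4 from 64415741 to 64417126, was 47, 46 and 35 steps high in Cgas_KO and had no peak in any WT list, at percentile 97.9 ± 0.165 (SD, n = 3). Peaks there were narrow, at 1360, 1275 and 389 bp in Cgas_KO replicates 1, 2 and 3, and the nearest region called in all 6 lists lay 1014 kb away. Of the 919 it was the only region with a mean percentile above 95 and no WT peak. Both regions lost the Cgas_KO-preferred pattern when lists were trimmed to the length of the shortest, and also at a minimum coverage of 50% of the region per list.

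The next in height was chromosome 4 from 103418418 to 103422735, with 38, 40 and 20 steps in Cgas_KO and 28 in WT replicate 3, or percentiles of 91.6 to 96.8 in Cgas_KO and 85.7 in WT. Chromosome 2 from 40444973 to 40447632 had 35, 24 and 29 steps in Cgas_KO and 21 in WT replicate 3, or percentiles of 88.5 to 97.0 in Cgas_KO. Chromosome 17 from 35900783 to 35904043 had 36, 25 and 19 steps in Cgas_KO and 23 in WT replicate 2, or percentiles of 89.7 to 96.1 in Cgas_KO and 82.4 in WT. In these 3 regions the WT peak ranked lower in its list than any of the Cgas_KO peaks in theirs. Chromosome 7 from 127305484 to 127309397 had 28, 27 and 20 steps in Cgas_KO and 24 in WT replicate 1, or percentiles of 91.6 to 92.6 in Cgas_KO and 79.2 in WT. Chromosome 19 from 36885607 to 36889382 had 32, 26 and 19 steps in Cgas_KO and 47 in WT replicate 2. By rank the WT peak was the highest there, with percentiles of 90.2 to 94.8 in Cgas_KO and 96.0 in WT.

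The other members of the 10 had smaller peaks. At chromosome 12, 17844553 to 17848181, the Cgas_KO peaks had 25, 26 and 20 steps and the peak in WT replicate 3 had 22, or percentiles of 89.9 to 91.6 in Cgas_KO and 77.0 in WT. At chromosome 3, 40904912 to 40906923, they had 30, 23 and 19 steps, with 23 in WT replicate 3, or percentiles of 87.1 to 93.8 in Cgas_KO and 78.8 in WT. Of the 8 regions of these 10 with a WT peak, only the one on chromosome 19 had that peak ranked above all Cgas_KO peaks. Picking by Cgas_KO height favours this, so nothing is read from it. Over all 613 regions with 1 WT peak, that peak ranked above the Cgas_KO mean in 46.3%. A further one on chromosome 12, 76822835 to 76827866, had 27, 26 and 18 steps in Cgas_KO and no WT peak. Of the 10 tallest regions, 2 were thus without a WT peak, against 306 of all 919.

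**Figure D2:**
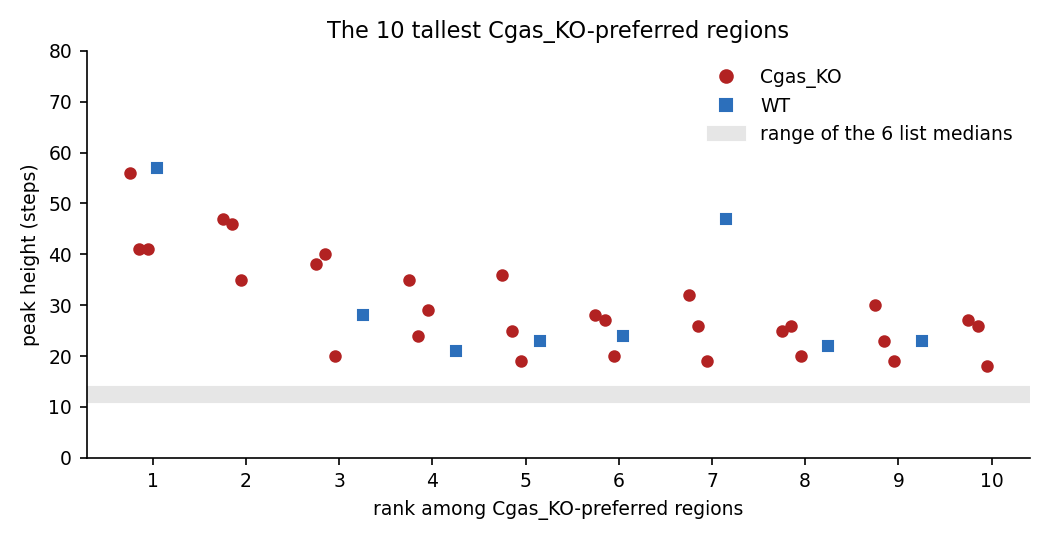
Peak height in steps (y axis) at the 10 Cgas_KO-preferred regions of highest mean height percentile, ordered by rank (x axis); red circles are Cgas_KO replicates 1 to 3 from left to right, blue squares the WT libraries that had a peak, and the grey band spans the median peaks of the 6 lists, 11 to 14 steps; steps differ in scale between lists. At rank 7 the WT peak is drawn at 47 steps, a height not compared between genotypes, and ranks 2 and 10 have no WT peak.

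Among regions without any WT peak, the next tallest were 3. Chromosome 8 from 31586272 to 31589485 had 30, 28 and 16 steps in Cgas_KO. Chromosome 5 from 122844117 to 122846602 had 26, 20 and 23 steps, and chromosome 7 from 43091825 to 43094713 had 26, 18 and 26 steps. Each of these stood above the median peak of its list in all 3 Cgas_KO libraries.

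The Cgas_KO peaks within a region often had their maxima at different places. The position of maximum signal, which the rule did not use, is where the bound protein would be placed by the peak caller. Across the 3 Cgas_KO lists these positions lay within 200 bp of one another in 86 of the 919 Cgas_KO-preferred regions, 9.36% (Wilson 95% interval 7.64% to 11.4%, counting error only). In regions called in all 6 lists they did so in 31.8% over the same Cgas_KO lists (30.5% to 33.1%). Over the WT lists the share was 36.2% in WT-preferred regions (33.6% to 38.9%) and 45.4% in regions in all 6 lists (44.0% to 46.8%). Maxima were thus looser in preferred regions than in regions in all 6 lists in both genotypes, and looser in Cgas_KO than in WT libraries in regions in all 6 lists too. The median spread of the 3 positions was 1310 bp in Cgas_KO-preferred regions and 429 bp in regions in all 6 lists over Cgas_KO libraries, against 300 bp in WT-preferred regions and 243.5 bp in regions in all 6 lists over WT libraries. The share in Cgas_KO-preferred regions was 21.7% when a call required a list to cover 50% of the region. Without a WT peak the share within 200 bp was 6.86% (21 of 306), and with 1 WT peak it was 10.6% (65 of 613). Regions are not replicates, so these differences carry no p-value.

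**Figure D3:**
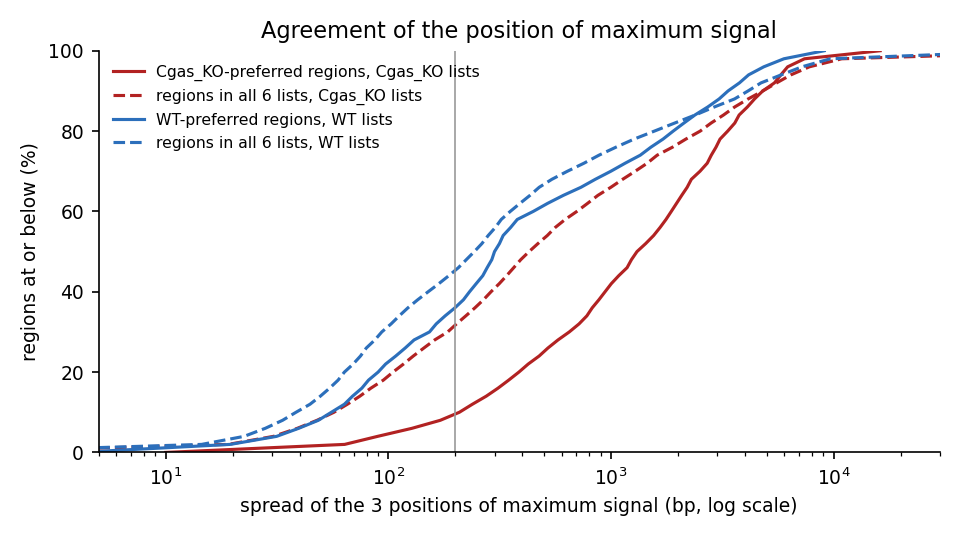
Cumulative share of regions (y axis) by the distance in bp between the outermost of the 3 positions of maximum signal (x axis, log scale), over Cgas_KO lists in red and WT lists in blue; solid lines are preferred regions, dashed lines regions in all 6 lists, and the grey line marks 200 bp. The curve of Cgas_KO-preferred regions lies lowest over most of the range, with 9.36% at 200 bp.

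Every pair of Cgas_KO libraries showed this. Maxima of the 2 libraries lay within 200 bp in 23.3% of Cgas_KO-preferred regions for replicates 1 and 2, 23.1% for replicates 1 and 3 and 24.3% for replicates 2 and 3. In regions in all 6 lists the same pairs gave 47.7% to 49.4%. For WT-preferred regions the pairs of WT libraries gave 51.7% to 54.7%, and for regions in all 6 lists 59.7% to 61.1%. Cgas_KO replicate 3, which had the most and the narrowest peaks, did not stand apart from the other Cgas_KO libraries in this.

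Agreement of the maxima went with peak height. Among Cgas_KO-preferred regions with a mean percentile under 40, 2 of 188 (1.06%) had their 3 maxima within 200 bp. The share was 3.12% (12 of 385) from 40 to 60, 14.5% (41 of 282) from 60 to 80 and 48.4% (31 of 64) above 80. Regions in all 6 lists gave 0% (0 of 71), 5.24%, 11.3% and 44.5% in these bands over the same Cgas_KO libraries. At like height, then, Cgas_KO-preferred regions and regions in all 6 lists had similar shares in the Cgas_KO lists, and the difference in the whole sets went with height. WT-preferred regions over WT lists gave 0% (0 of 136), 13.7%, 38.5% and 74.5%, against 2.44%, 4.83%, 23.7% and 60.2% in regions in all 6 lists. In the WT lists, preferred regions thus had the higher share at like height above percentile 40. These bands match height only. Over WT lists, 30.0% of regions in all 6 lists held several peaks of a list, against 7.03% of WT-preferred regions. Over Cgas_KO lists it was 35.0% against 10.9% of Cgas_KO-preferred regions. With several peaks, the tallest need not be the same one in each list, which can widen the spread.

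**Figure D4:**
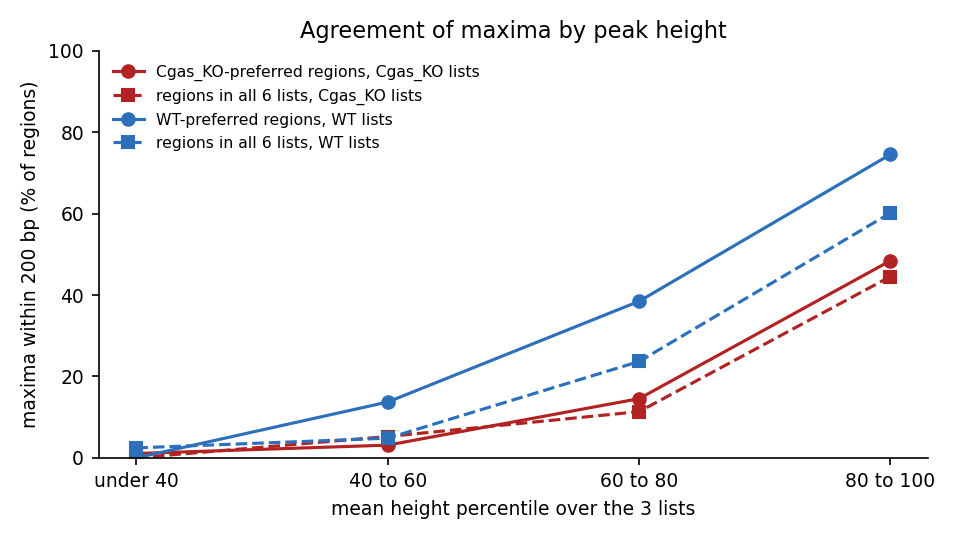
Share of regions whose 3 maxima lay within 200 bp (y axis, percent) by mean height percentile over the same 3 lists (x axis, 4 bands); red is over Cgas_KO lists, blue over WT lists, circles with solid lines are preferred regions and squares with dashed lines regions in all 6 lists. The 2 red lines run close together, at 48.4% and 44.5% in the tallest band, and the blue lines end at 74.5% for WT-preferred regions and 60.2% for regions in all 6 lists.

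By the tightness of their maxima, the leading regions with a mean percentile above 75 were partly the tall ones already named. Chromosome 6 from 137699513 to 137703085 was first, with maxima within 10 bp, heights of 19, 19 and 15 steps in Cgas_KO and no WT peak. The region of chromosome 4 at 64415741 followed with 18 bp. Chromosome 14 from 101639690 to 101645070 had a spread of 24.5 bp, with 24, 15 and 17 steps in Cgas_KO and 18 in WT replicate 1. Chromosome 15 from 98077439 to 98080654 had a spread of 25 bp, with 21, 30 and 16 steps in Cgas_KO and no WT peak. The region of chromosome 2 at 66017611, with 32.5 bp, was the fifth. Of these 5, 3 had no peak in any WT list, against 306 of all 919 regions. The same held for 21 of the 92 regions with a mean percentile of 75 to 90 and 2 of the 12 above 90.

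Merging chains peaks, so 2 Cgas_KO peaks can belong to 1 region without touching. All 3 shared at least 1 base in 723 of the 919 Cgas_KO-preferred regions (78.7%), with a median of 1614 bp in common, and in 196 they did not. Over the same lists the share was 85.8% in regions in all 6 lists, and over the WT lists it was 90.3% in WT-preferred regions. Regions built instead from the midpoints of maximum signal, chained at up to 200 bp, gave 372 Cgas_KO-preferred against 1384 WT-preferred regions. Of the 919 regions, 141 (15.3%) held one of the 372, whereas 582 of the 1252 WT-preferred regions (46.5%) held one of the 1384.

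Peak widths at Cgas_KO-preferred regions were those of their lists. The median was 3138, 3484 and 2490 bp in Cgas_KO replicates 1, 2 and 3, against 3258, 3511.5 and 2568 bp over all peaks of these lists. Regions in all 6 lists had a median of 3203 ± 447 bp in Cgas_KO libraries and Cgas_KO-preferred regions 3037 ± 505 bp (SD, n = 3 each). The merged regions had a median width of 5670 bp, against 5144.5 bp for WT-preferred regions and 7344 bp for regions in all 6 lists. A wider peak overlaps others more easily, so width is not independent of the rule and was not tested.

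Cgas_KO-preferred regions lay nearer to regions called in all 6 lists than an ordinary region did. Their median distance was 71.8 kb, with 116 of 919 (12.6%) within 10 kb, 392 (42.7%) within 50 kb and 52 (5.66%) beyond 1 Mb. WT-preferred regions had a median of 86.9 kb and 36.4% within 50 kb. All 85684 regions not called in every list had a median of 214.6 kb and 22.4% within 50 kb. Nearer to these were the 6011 other regions called in 3 or 4 lists, as Cgas_KO-preferred regions are, with a median of 82.3 kb and 38.2% within 50 kb. Regions with no WT peak and with 1 WT peak had medians of 72.1 and 71.5 kb.

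These shares changed with how regions were built, as did the number of regions in all 6 lists and the Cgas_KO-preferred set itself. At a minimum coverage of 50% per list, 590 regions counted as called in all 6, and 8.68% of Cgas_KO-preferred regions lay within 50 kb of one. The same share was then 6.33% for WT-preferred regions, 7.44% for other regions in 3 or 4 lists and 3.69% for all regions not in all 6 lists. With regions built from midpoints of maximum signal, 1815 were in all 6 lists, and the shares were 20.4% for Cgas_KO-preferred regions, 19.7% for WT-preferred regions, 21.3% for other regions in 3 or 4 lists and 12.4% for all regions not in all 6 lists. Among the top 50% of each list's peaks by total signal, 31.3% of Cgas_KO-preferred and 30.1% of WT-preferred regions lay within 50 kb. Other regions in 3 or 4 lists then had 32.0% and all regions not in all 6 lists 20.7%. Under each of these definitions Cgas_KO-preferred regions had a higher share than all regions not in all 6 lists. Against other regions in 3 or 4 lists the order turned with midpoints and in the top 50%.

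**Figure D5:**
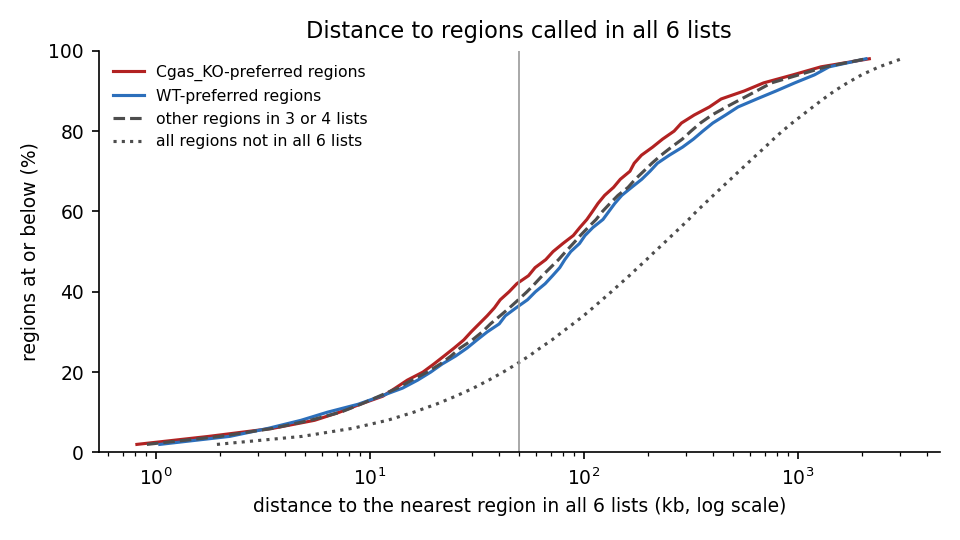
Cumulative share of regions (y axis) by distance in kb to the nearest region called in all 6 lists (x axis, log scale); red is Cgas_KO-preferred, blue WT-preferred, the dashed line other regions in 3 or 4 lists, the dotted line all regions not in all 6 lists, and the grey line marks 50 kb. At 50 kb the Cgas_KO-preferred regions reach 42.7%, other regions in 3 or 4 lists 38.2% and all regions not in all 6 lists 22.4%.

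Most Cgas_KO-preferred regions, 776 of 919, had no other one within 100 kb. The other 143 (15.6%) lay within 100 kb of another one, and the median gap was 508 kb. Whether they lay closer together or further apart than even placement would give was not tested. Chained at gaps of up to 100 kb they formed 57 pairs and 9 groups of 3 or more, the largest of 4 regions. WT-preferred regions, which were more numerous, had 276 of 1252 (22.0%) within 100 kb of another, 105 pairs, 19 groups of 3 or more and a largest group of 7. The 1 Mb bins that held any Cgas_KO-preferred region numbered 658, and the fullest bin held 7.

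The 2 groups of 4 lay on chromosomes 19 and 10. The shorter, on chromosome 19 from 8745167 to 8920656, spanned 175 kb around 1 region called in all 6 lists. One of its regions, from 8745167 to 8754634, had 20, 22 and 14 steps in Cgas_KO and 26 in WT replicate 3. All peaks within the group numbered 7, 14 and 12 in Cgas_KO replicates 1, 2 and 3, against 8, 9 and 11 in WT. The peak counts of the genotypes overlapped there. The other group of 4 lay on chromosome 10 from 128272947 to 128464326, in 191 kb that also held 6 regions called in all 6 lists. It had 12, 15 and 13 peaks in Cgas_KO and 10, 7 and 12 in WT, again overlapping. Of the 7 groups of 3, the shortest lay on chromosome 15 from 98789489 to 98885692, in 96.2 kb, with 6, 6 and 5 peaks in Cgas_KO and 4, 3 and 3 in WT. These counts include the peaks that defined the regions.

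Over the chromosomes, Cgas_KO-preferred regions made up 0.725% (chromosome 3) to 1.51% (chromosome 19) of all merged regions, around the 1.02% of the whole. Chromosome 2 held the most, 89 of 7024 (1.27%). WT-preferred regions were more numerous on 17 of the 19 chromosomes. The exceptions were chromosome 2, with 89 Cgas_KO-preferred against 88 WT-preferred regions, and chromosome 15, with 46 against 42. The widest difference in number the other way was on chromosome 17, with 32 against 67, followed by chromosome 4, with 55 against 88, and chromosome 7, with 59 against 91.

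The surroundings of Cgas_KO-preferred regions were also compared between genotypes, on peaks and regions that the rule had not chosen. The windows around them were placed by the rule with the genotypes known, and were not placed anew for each assignment. The p-values below therefore leave out the effect of that choice, and no conclusion is drawn from them. Of each list's peaks outside preferred regions of either kind, 8.00%, 7.78% and 7.59% lay within 50 kb of a Cgas_KO-preferred region in Cgas_KO replicates 1, 2 and 3, against 7.64%, 7.41% and 7.65% in WT. The means were 7.79% ± 0.205 in Cgas_KO and 7.57% ± 0.136 in WT (SD, n = 3), a difference of 0.223 percentage points, and the ranges overlapped (p = 0.3 by a two-sided exact permutation test, Benjamini-Hochberg adjusted over 2 tests 0.3). Its sign turned in 2 other ways of building the regions, to -0.394 points with midpoints of maximum signal and -0.00641 with a minimum coverage of 50% of a region per list. It also moved when a library was left out and the regions were chosen anew from the other 5. It was 0.349, 0.569 and 1.09 points without Cgas_KO replicates 1, 2 and 3. Without WT replicates 1, 2 and 3 it was 0.377, 0.317 and 0.311 points (exact permutation p = 0.1 to 0.5 over all of these). The regions so chosen numbered 2425 to 2593 without a Cgas_KO list and 1587 to 1635 without a WT list. These differences thus come from unlike sets of regions. With 3 libraries against 3, an exact permutation test cannot go below p = 0.1.

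Regions called in all 6 lists within 50 kb of a Cgas_KO-preferred region numbered 563, or 11.7% of the 4810. Their median height percentile equalled that of all 4810 in each Cgas_KO library, a difference of 0 points in 3 of 3, because heights come in whole steps and both medians fell on the same step. In WT replicates 1, 2 and 3 it was 1.80, 0.902 and 0.825 points above that of all 4810, where the medians did not fall on the same step. The order of the genotypes thus rests on where medians of whole steps fell. The difference between genotypes was -1.18 points, lower in 3 of 3 Cgas_KO libraries, at the smallest p the design allows (two-sided exact permutation test, p = 0.1, n = 3 each, adjusted over 2 tests 0.2). It was -0.40 points by total signal (exact permutation p = 0.6, n = 3), and -0.53 and -0.31 points with windows of 20 kb and 200 kb (exact permutation p = 0.7 and 1). Neither measure of the neighbourhood passed the threshold of 0.05, which 3 libraries against 3 cannot reach.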

How the data were processed

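Peak lists of 6 CTCF CUT&RUN libraries, 3 Cgas_KO and 3 WT, were used. Bowtie2 and SEACR 1.3 are named in the submitters' processing notes. Each deposited peak carries the authors' signal, both summed over the peak and at its maximum. The names of the lists carry 0.01 and non, the form of SEACR's numeric threshold and its setting without normalization, but no label states these settings, a control or any scaling. The notes list mm10 and mm39, and the sequence names belong to mm39. Peaks were called per library. Any 2 lists had 0 identical peaks in common, so all 6 counted as separate samples.

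Maximum signal was a whole multiple of 1 step within 0.01 step for 100% of peaks under 200 steps. Values per library were compared with two-sided exact permutation tests over 20 assignments. The regions stayed as chosen and were not chosen anew for each assignment. The merging, the spread of maxima and the permutation test were tested on planted lists. Scripts ran under Python 3.11.15 with scipy 1.17.1, numpy 2.4.6, pandas 2.3.3 and, for plots, matplotlib 3.10.9.

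The regions and measures were chosen with earlier results of these data known. Named were the 10 regions of highest mean height percentile, the 5 highest without a WT peak, the 5 tightest maxima above percentile 75 and the 3 groups with most regions, shorter spans first among ties. Gene, promoter and motif results needed an mm39 genome or annotation and were not run. Alternatives were shorter lists, other overlap rules, other numbers of lists, windows of 20 and 200 kb, total signal, each library left out in turn and a replicate block.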

Additional observations from a re-analysis of the deposited data

How the results depend on the processing

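The requirement that the peaks of a region share a base, and the distances of other regions under other definitions, were chosen after the data were examined. There were 485 Cgas_KO-preferred regions among the top 50% of peaks in total signal, 530 at 50% coverage, 372 by midpoints of maximum signal, 306 with 0 WT lists, 2983 with at least 2 Cgas_KO and 0 WT lists, and 1587 to 2593 without 1 library. WT-preferred regions numbered 735 in the top 50%, 346 with 0 Cgas_KO lists, 2729 with at least 2 WT and 0 Cgas_KO lists, and 2371 to 2898 without 1 library. Dropping any of the 6 eases the rule, so a rise is built in. The median height percentile in Cgas_KO lists was 61.1 with lists trimmed to the shortest, 69.2 in the top 50%, 75.3 at 50% coverage, 79.8 by midpoints, 37.0 with at least 2 Cgas_KO lists, 57.1 by total signal, 61.1 for peaks sharing a base, and 44.9 to 63.1 without 1 library. The median width was 3542 bp in the top 50%. The share within 50 kb of a region in all 6 lists was 31.3% in the top 50%, 8.68% at 50% coverage, 20.4% by midpoints, 31.9% with at least 2 Cgas_KO lists, 38.5% between midpoints, and 39.2% to 46.5% without 1 library. The share with maxima within 200 bp was 12.0% in the top 50%, 21.7% at 50% coverage, 69.1% by midpoints, which select for it, 6.86% with 0 WT lists, 13.0% with at least 2 Cgas_KO lists, 11.9% for peaks sharing a base, 25.1% at a tolerance of 500 bp, and 12.3% to 20.9% without 1 library. The share of peaks near these regions reversed to -0.394 points by midpoints and -0.00641 at 50% coverage, and was 0.311 to 1.09 points without 1 library. The cause was not tested where not stated.

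Of the 919 regions, 41 held a region of the same pattern under all 5 of trimmed lists, 50% coverage, merging within 500 bp, midpoints and a shared base, against 237 of the 1252 WT-preferred regions. Of the 16 single regions named, 8 did so. The regions of chromosome 2 at 66017611 and of chromosome 4 at 64415741 were not among them, as they were lost with trimmed lists and at 50% coverage. Replicate numbers did not pair the libraries, with correlations of their deviations between -0.0106 and -0.00575. With the replicate number as a block the differences were 0.223 points (exact sign-flip p = 0.5) and -1.18 points (exact sign-flip p = 0.25, the smallest possible). Depth is unknown and limits what a missing peak means.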

Other observations

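Chromosomes X and Y lay outside the rule. On chromosome X, 15 of 4447 merged regions (0.337%) were called in all 3 Cgas_KO lists and at most 1 WT list, and 44 (0.989%) showed the pattern with the genotypes exchanged. On chromosome Y the counts were 0 and 1 of 10 regions. The sex of the animals is not given in the labels, and no explanation was tested.

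Across regions, the height percentiles of 2 Cgas_KO libraries were less alike in Cgas_KO-preferred regions than in regions called in all 6 lists. Spearman's rho across the 919 regions was 0.286 for replicates 1 and 2, 0.200 for replicates 1 and 3 and 0.221 for replicates 2 and 3. Across the 4810 regions it was 0.710, 0.668 and 0.678 for the same pairs. For the WT pairs it was 0.579 to 0.617 across the 1252 WT-preferred regions and 0.835 to 0.842 across the 4810. The WT libraries were thus more alike than the Cgas_KO libraries in regions in all 6 lists too. These are correlations across regions, which are not independent replicates. They share libraries, and the narrower range of heights in preferred regions bears on rho, so they are given as descriptions only.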
